A study of Arabidopsis thaliana with 4 samples.

Results

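The genes described here are those whose signal peaked in 1 of the silenced plant groups, RNAi group 2. A probe set (the group of short probes that reads 1 transcript) was a member if its signal in RNAi group 2 was at least 4-fold that of RNAi group 3 and at least 4-fold that of the array shared by RNAi group 1 and the control. RNAi group 3 and the shared array also had to lie less than 2-fold apart. Signals under 32 were set to 32 first, so that differences between near-background values could not make a fold. A fold over an array under 32 is then a lower bound. Of 22746 probe sets, 113 met these criteria, and 111 remained after COR27 and the cytochrome P450 gene CYP71B31 were left out by symbol. The members were chosen on these signals, so their differences are a description and carry no test or p-value.

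The plants were Arabidopsis thaliana. RNAi groups 1, 2 and 3 carried an inverted repeat with sequence from the open reading frame of myosin XI-K, made to silence that gene by RNA interference (RNAi), and the control group constitutively expressed the GUS reporter as a transgene. The series asked how 17 myosin RNAs compare between silenced and control plants. RNA came from rosette leaves, cauline leaves and flowers mixed in equal parts, with 1 array per plant group. The labels give no plant age, no promoter for the inverted repeat and no number of plants per group. RNAi group 1 and the GUS control have the same value at every one of the 22810 rows. They were counted as 1 array, called the shared array, and it is not known which of the plant groups was on it. Myosin XI-K has no named probe set here, so the silenced gene was not checked. With 1 array per plant group no value has a replicate error.

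Myosin XI-K is a motor protein that carries organelles and vesicles along actin filaments in most plant organs. Several families met below are known from maturing seeds. Cupins of the cruciferin and vicilin type store nitrogen in seeds, oleosins coat seed oil bodies, and late embryogenesis abundant (LEA) proteins protect cells while they dry. Some LEA genes are also switched on in leaves by drought, cold or the hormone abscisic acid.

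The mean signal after trimming 2% from both ends was 500.05 or 500.06 on each of the 3 distinct arrays, so they were not scaled again. Their median signals were 170.25 in RNAi group 2, 159.7 in RNAi group 3 and 156.1 on the shared array. In median log2 signal RNAi group 2 lay 0.12 above the shared array and 0.09 above RNAi group 3. With the arrays centred on their medians the members numbered 95, all of them among the 111. Signals under 32 made up 25.0% of probe sets in RNAi group 2, 26.2% in RNAi group 3 and 27.7% on the shared array. The 3 named leaf markers were bright on every array, and all were lowest in RNAi group 2. RCA, the activase of the carbon-fixing enzyme Rubisco, had 20964.3 in RNAi group 2, 22392.2 in RNAi group 3 and 21684.4 on the shared array. LHCB4.1 had 14452.3 in RNAi group 2, 20157.2 in RNAi group 3 and 20086.6 on the shared array. PRK had 8688.0 in RNAi group 2, 8826.0 in RNAi group 3 and 11837.0 on the shared array. The 12 markers chosen for floral organ identity and the 16 chosen for seed and embryo had no named probe set, so the flower and seed content of the samples was not tested. In such mixed samples, fewer cells of a type and less RNA per cell cannot be told apart.

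The 113 probe sets that met the signal criteria were 0.497% of the array, and the 111 members 0.488%. The same criteria were met by 7 probe sets (0.0308%) with RNAi group 3 as the high array and by 3 (0.0132%) with the shared array as the high array. RNAi group 2 was at least 4-fold over the shared array at 236 probe sets (1.04%), over RNAi group 3 at 282 (1.24%) and over both at 127 (0.558%). With the same symbols left out, 233 probe sets met the 4-fold criterion against the shared array alone and 278 against RNAi group 3 alone. RNAi group 3 and the shared array were at least 4-fold apart at 99 probe sets (0.435%). The SD of the log2 difference over all probe sets was 0.59 for RNAi group 2 against the shared array, 0.69 for RNAi group 2 against RNAi group 3 and 0.48 for RNAi group 3 against the shared array.

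**Figure D1:**
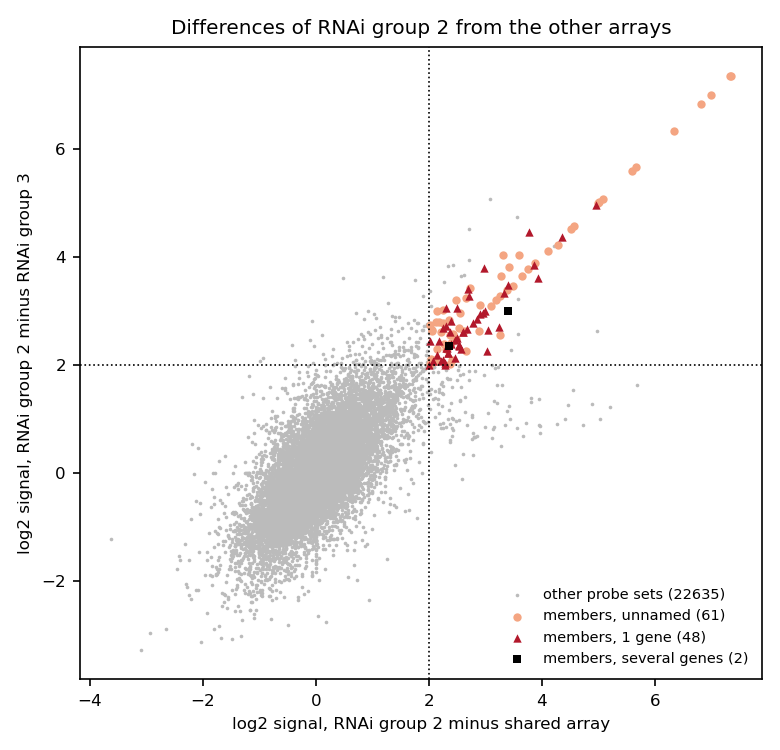
Each point is a probe set, placed by its log2 signal in RNAi group 2 minus that on the shared array (x axis) and minus that in RNAi group 3 (y axis), with signals under 32 set to 32. Dotted lines mark the 4-fold threshold at 2 on both axes, and the 111 members fill the upper right corner up to a log2 difference of 7.35 on both axes.

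Of the members, 48 carried the name of 1 gene, 2 matched several genes and 61 are unnamed here. Members were 0.355% of the 13513 probe sets with 1 named gene and 0.699% of the 8730 unnamed ones. All 10 members with the greatest smaller fold, the lower of the 2 folds of RNAi group 2, were unnamed. The unnamed probe set with the greatest smaller fold had a signal of 5223.5 in RNAi group 2, 25.7 in RNAi group 3 and 11.1 on the shared array, at least 163-fold over both. The next had 5186.4 in RNAi group 2, 9.0 in RNAi group 3 and 29.1 on the shared array, at least 162-fold over both. These were clear signals on 1 array and signals under the floor on the others.

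The members divide into genes without a clear signal elsewhere and genes already measured elsewhere. In 44 of the 111, RNAi group 3 and the shared array both lay under 32, so that the fold is only a lower bound. Their median smaller fold was at least 8.86. In 52 members both other arrays lay at or over 32, and the median smaller fold was 4.96, with a highest of 18.7. The remaining 15 had 1 of the other arrays under 32. These shares follow in part from the rule, which asks for low signals on the other arrays. At least 8-fold over both arrays were 34 members, at least 16-fold 16, and at least 64-fold 5. Only 2 of the 16 were named by 1 gene, AT1G04560 and AT3G15670.

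**Figure D2:**
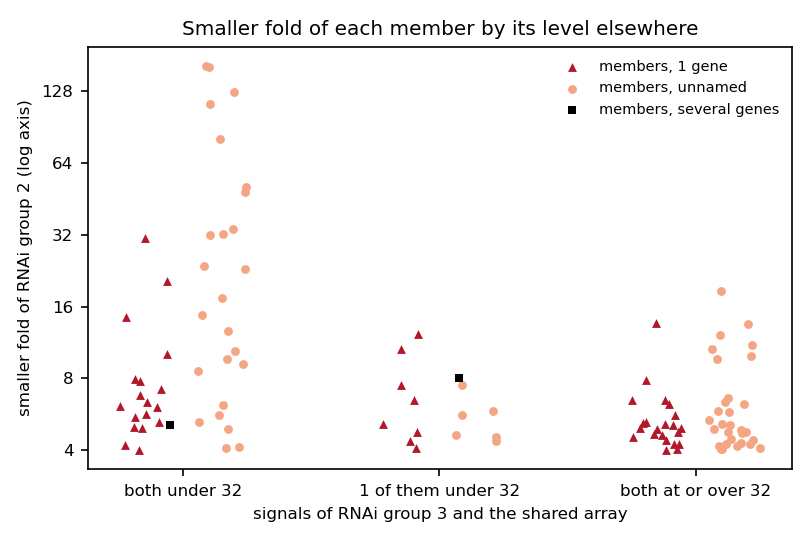
Each point is a member, with the smaller of its 2 folds of RNAi group 2 on a log axis and the members grouped by whether RNAi group 3 and the shared array lay under a signal of 32. The 44 members under 32 on both reach 163-fold, and the 52 at or over 32 on both reach 18.7-fold; folds in the left group are lower bounds.

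The members include 3 cupins known as seed storage proteins or their relatives, each under the floor on the other arrays. PAP85, a vicilin-like seed storage protein, had 463.9 in RNAi group 2, 23.2 in RNAi group 3 and 17.7 on the shared array, at least 14.5-fold over both. AT1G03890, a cruciferin-like cupin, had 181.2 in RNAi group 2, 3.0 in RNAi group 3 and 2.3 on the shared array. AT2G28490, a vicilin-like cupin, had 158.9 in RNAi group 2, 5.0 in RNAi group 3 and 1.8 on the shared array. The folds of the last 2 were at least 5.66 and at least 4.97. The oleosin gene AT3G01570 had 245.6 in RNAi group 2, 25.3 in RNAi group 3 and 32.6 on the shared array, 7.53-fold over the shared array and at least 7.68-fold over RNAi group 3.

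Not every named gene of these families followed. A list of 10 cupin storage proteins and their relatives, put together after the values were seen, had 7 named probe sets, of which 3 were members. Of the other 4, 0 were at least 2-fold over both arrays, and AT2G18540 lay under the floor on all of them. AT1G07750, a cupin with a signal on all arrays, had 1303.9 in RNAi group 2, 799.9 in RNAi group 3 and 711.8 on the shared array. Of 18 oleosins, 5 had a named probe set and 1 was a member. AT2G25890, another oleosin, had 106.3 in RNAi group 2, 45.1 in RNAi group 3 and 1.6 on the shared array, 2.36-fold over RNAi group 3. OLEO3 was highest in RNAi group 3, with 59.9 in RNAi group 2, 97.1 in RNAi group 3 and 49.6 on the shared array. Over all probe sets with 1 named gene, 0.355% were members and 2.73% were at least 2-fold over both arrays. These shares stand beside the counts of every family here and below. All families were chosen with these values known, so their counts are a description.

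LEA genes gave 4 members. AT3G15670 had 657.9 in RNAi group 2, 4.1 in RNAi group 3 and 4.5 on the shared array, at least 20.6-fold over both. AT3G17520 had 354.9 in RNAi group 2, 18.5 in RNAi group 3 and 33.5 on the shared array, 10.6-fold over the shared array. M10 had 255.7 in RNAi group 2, 3.0 in RNAi group 3 and 2.6 on the shared array, at least 7.99-fold over both. All 3 were near or under the floor outside RNAi group 2. AT3G02480 differed in level: it had 2814.5 in RNAi group 2, 572.6 in RNAi group 3 and 473.0 on the shared array, 4.92-fold over RNAi group 3 and 5.95-fold over the shared array. AT1G04560, a membrane protein of the AWPM-19 family, known in wheat as induced by abscisic acid, had the greatest smaller fold among the named members. It had 993.7 in RNAi group 2, 28.2 in RNAi group 3 and 19.7 on the shared array, at least 31.1-fold over both.

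Across 52 LEA genes listed after the values were seen, 36 had a named probe set. Of the 32 that are no members, 7 were at least 2-fold over both other arrays in RNAi group 2, and 1 was at least 2-fold under both. Over all probe sets with 1 named gene 0.355% were members and 2.73% were at least 2-fold over both. The list was made with these values known, so the counts are a description. LEA4-5, a drought-induced gene, had 528.5 in RNAi group 2, 188.4 in RNAi group 3 and 188.6 on the shared array, a 2.80-fold difference that kept it out. AT4G21020 had 106.3 in RNAi group 2, 2.6 in RNAi group 3 and 2.1 on the shared array, at least 3.32-fold. The cold-induced dehydrin gene COR47 had 18725.8 in RNAi group 2, 15541.6 in RNAi group 3 and 12048.2 on the shared array. LTI30 of the same list had 7905.0 in RNAi group 2, 2991.0 in RNAi group 3 and 4214.2 on the shared array. It was 2.64-fold over RNAi group 3 and 1.88-fold over the shared array. The dehydrin-like gene AT4G38410 went the other way, with 51.1 in RNAi group 2, 154.8 in RNAi group 3 and 241.9 on the shared array. In 7 of the 36 all 3 arrays lay under 32.

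**Figure D3:**
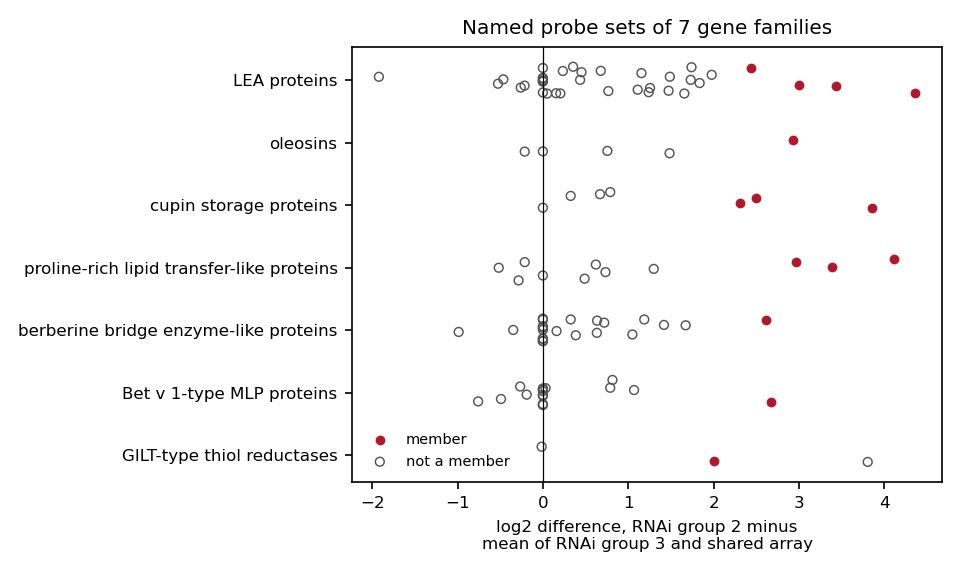
Each point is a named probe set of 1 of 7 gene families, placed by its log2 signal in RNAi group 2 minus the mean of RNAi group 3 and the shared array, with filled points for members. Members lie at 2.00 or more; points at 0 include probe sets under the floor of 32 on all arrays, and the LEA point at -1.92 is AT4G38410.

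Of the remaining named members, 3 are enzymes known to act on pectin or mucilage; no list of such enzymes was counted here. AT3G10320, a glycosyltransferase known to act in seed coat mucilage, had 195.0 in RNAi group 2, 18.1 in RNAi group 3 and 16.7 on the shared array. AT5G49180, a pectin methylesterase also known from seed coat mucilage, had 156.8 in RNAi group 2, 38.4 in RNAi group 3 and 29.1 on the shared array. ADPG1, a polygalacturonase that separates cells when siliques open and floral organs are shed, had 159.9 in RNAi group 2, 26.7 in RNAi group 3 and 13.8 on the shared array. Their smaller folds were at least 6.09, 4.08 and at least 5.00.

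**Figure D4:**
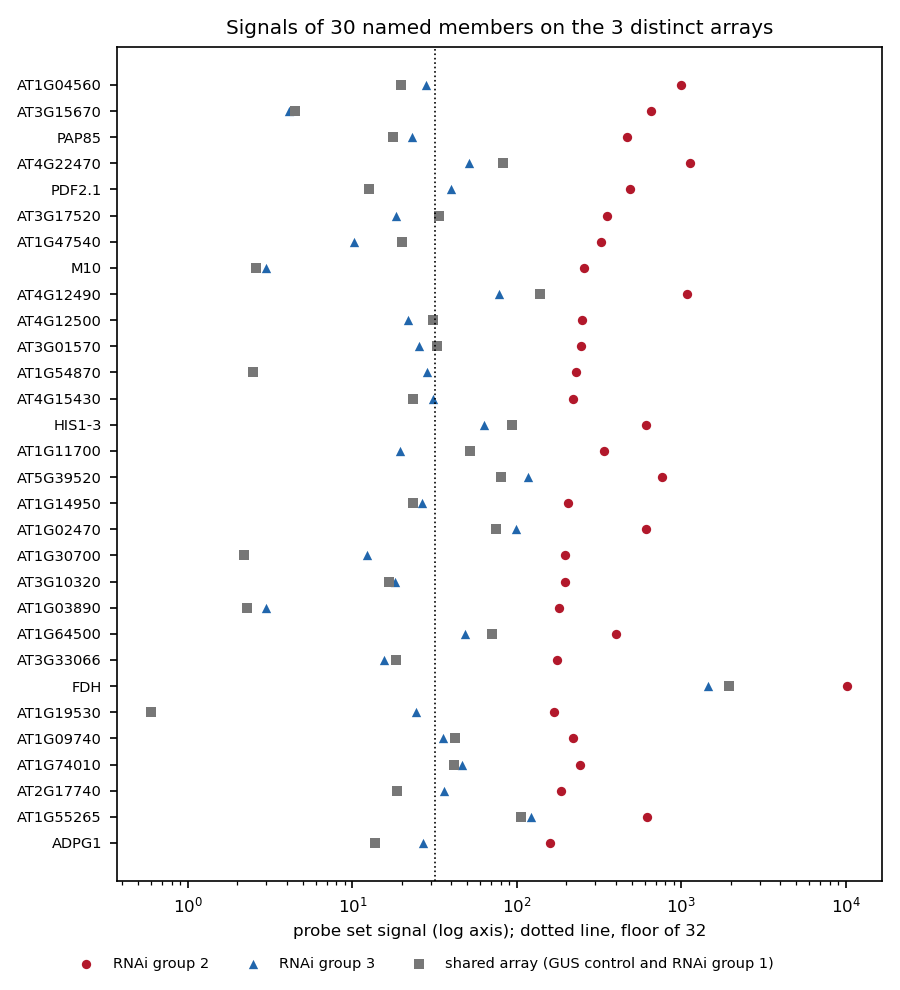
Signals of the 30 named members with the greatest smaller fold, on a log axis, with 1 symbol for each of the 3 distinct arrays and rows ordered by smaller fold from AT1G04560 at 31.1 to ADPG1 at 5.00. In every row the circle of RNAi group 2 lies to the right of both other symbols, which is the rule of choice; the dotted line marks the floor of 32.

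Small secreted proteins made up the next group, and no list of defensins or trypsin inhibitors was counted here. PDF2.1, a plant defensin, had 489.8 in RNAi group 2, 39.9 in RNAi group 3 and 12.7 on the shared array, 12.3-fold over RNAi group 3. AT1G47540, of the trypsin inhibitor family, had 322.5 in RNAi group 2, 10.2 in RNAi group 3 and 19.9 on the shared array, at least 10.1-fold over both. The lipid transfer-like gene AT4G22470, whose product also has a proline-rich part, had 1127.4 in RNAi group 2, 51.2 in RNAi group 3 and 82.5 on the shared array. It was already above the floor elsewhere, and its smaller fold was 13.7. AT4G12490 of the same family had 1084.7 in RNAi group 2, 77.9 in RNAi group 3 and 137.3 on the shared array. Its relative AT4G12500 had 249.4 in RNAi group 2, 21.9 in RNAi group 3 and 30.8 on the shared array.

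Of 24 such proline-rich genes listed after the values were seen, 11 had a named probe set. Members were 3 of these, where 0.355% of all probe sets with 1 named gene are members. The other 8 were not members. AT2G45180, for example, had 12329.3 in RNAi group 2, 2818.1 in RNAi group 3 and 8909.1 on the shared array. It was low in RNAi group 3 alone. AT3G22620, a lipid transfer protein, had 215.8 in RNAi group 2, 53.7 in RNAi group 3 and 44.5 on the shared array. AT1G14950, of the Bet v 1 allergen-like family, had 204.2 in RNAi group 2, 26.6 in RNAi group 3 and 23.4 on the shared array. It was the only member among 16 named probe sets of that family, and AT1G14960 of the same family had 40.1 in RNAi group 2, 49.1 in RNAi group 3 and 42.6 on the shared array.

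Among members known from water loss or stress, HIS1-3 and AT1G09740 were measured on all arrays. AT4G15430 lay under the floor outside RNAi group 2. HIS1-3, a linker histone induced by drought and abscisic acid, had 606.6 in RNAi group 2, 62.7 in RNAi group 3 and 93.2 on the shared array, 9.67-fold over RNAi group 3 and 6.51-fold over the shared array. AT4G15430, of the family of dehydration-responsive membrane proteins that includes osmotically gated calcium channels, had 218.8 in RNAi group 2, 31.1 in RNAi group 3 and 23.4 on the shared array. AT1G09740, of the universal stress protein family, had 220.1 in RNAi group 2, 35.8 in RNAi group 3 and 42.2 on the shared array. Their smaller folds ran from 5.22 to 6.84, and that of AT4G15430 is a lower bound. The list chosen for cold and abscisic acid response had 4 named probe sets, 0 of them members and 0 at least 2-fold over both arrays. Besides COR47 and LTI30 it held STZ and COR15B, which were 1.08-fold and 1.16-fold over the shared array. A stress response of the plants was not tested.

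Metabolic genes among the members included some with clear signals on every array. FDH, the mitochondrial formate dehydrogenase, had 10186.8 in RNAi group 2, 1443.8 in RNAi group 3 and 1941.7 on the shared array, 7.06-fold over RNAi group 3 and 5.25-fold over the shared array. AT5G15950, an S-adenosylmethionine decarboxylase that feeds polyamine synthesis, had 2942.3 in RNAi group 2, 448.7 in RNAi group 3 and 593.1 on the shared array. These are members whose folds do not rest on the floor. AT1G12010, of the family that makes ethylene in its last step, had 363.9 in RNAi group 2, 78.2 in RNAi group 3 and 71.8 on the shared array. AT2G36970, a glycosyltransferase of the UGT family, had 244.9 in RNAi group 2, 53.7 in RNAi group 3 and 55.7 on the shared array. RNAi group 3 and the shared array were close for both genes.

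Other enzymes were near or under the floor outside RNAi group 2. AT1G54870, a short-chain dehydrogenase, had 230.0 in RNAi group 2, 28.4 in RNAi group 3 and 2.5 on the shared array. AT1G30700, a berberine bridge enzyme-like oxidase, had 195.7 in RNAi group 2, 12.3 in RNAi group 3 and 2.2 on the shared array. It was the only member among 22 named probe sets of its family, of which 9 lay under 32 on all arrays. AT1G26390 of that family had 103.9 in RNAi group 2, 33.2 in RNAi group 3 and 20.4 on the shared array. AT5G10770, an aspartyl protease, had 206.1 in RNAi group 2, 30.3 in RNAi group 3 and 43.1 on the shared array. The strictosidine synthase-like gene AT1G74010 had 241.1 in RNAi group 2, 46.6 in RNAi group 3 and 41.4 on the shared array. AT4G12890, a thiol reductase of the GILT family, had 128.3 in RNAi group 2, 29.1 in RNAi group 3 and 17.4 on the shared array, at least 4.01-fold over both. Its family had 3 named probe sets and no other member. GILT of that family, given below, was more than 4-fold over both arrays. It was kept out only by the limit between them.

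Transporters gave 3 named members, and no list of transporters was counted here. SWEET9, the sucrose exporter of floral nectaries, had 176.5 in RNAi group 2, 40.3 in RNAi group 3 and 17.9 on the shared array. OCT1, an organic cation and carnitine transporter, was 4.65-fold over the 64.5 of RNAi group 3 and 5.06-fold over the 59.3 of the shared array. AT5G14940, of the nitrate and peptide transporter family, had 345.4 in RNAi group 2, 41.6 in RNAi group 3 and 69.6 on the shared array. Their smaller folds lay between 4.38 and 4.96. AT1G64500, known as a light-regulated protein that bundles actin filaments and acts in chloroplast movement, works on the track that myosins use. It had 398.1 in RNAi group 2, 48.2 in RNAi group 3 and 70.7 on the shared array, 8.26-fold over RNAi group 3 and 5.63-fold over the shared array.

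No role is given here for the remaining named members. AT5G39520 had 762.4 in RNAi group 2, 117.5 in RNAi group 3 and 80.3 on the shared array. AT1G02470 had 612.9 in RNAi group 2, 98.2 in RNAi group 3 and 74.5 on the shared array. AT1G55265 had 617.8 in RNAi group 2, 121.6 in RNAi group 3 and 106.2 on the shared array. All 3 were measured on every array and lay higher in RNAi group 3 than on the shared array. AT1G11700 had 338.4 in RNAi group 2, 19.4 in RNAi group 3 and 52.1 on the shared array. AT1G19530 had 167.2 in RNAi group 2, 24.5 in RNAi group 3 and 0.6 on the shared array. AT2G17740 had 185.7 in RNAi group 2, 36.0 in RNAi group 3 and 18.6 on the shared array. AT2G17740, AT5G50360, AT5G20790, AT1G54860, AT2G41250 and AT1G26930 had smaller folds of 5.16, 4.26, at least 4.19, 4.79, 4.54 and 4.05. AT3G33066 and AT3G31970 are pseudogenes in the reference table, with smaller folds of at least 5.48 and 4.23. AT3G33066 had 175.5 in RNAi group 2, 15.5 in RNAi group 3 and 18.3 on the shared array. The other 46 named members are protein-coding.

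Among the 52 members measured on both other arrays, 31 were lower in RNAi group 3 than on the shared array and 21 were higher. Of all 15863 probe sets measured on both, 46.6% were lower in RNAi group 3 and 53.4% higher. The rule used both of these signals and held them less than 2-fold apart in the members only. The splits are therefore not on like terms, and no trait of the members is read from them. A further 14 probe sets were at least 4-fold over both arrays and were kept out because those lay 2-fold or more apart, 11 with the shared array higher and 3 with RNAi group 3 higher. SAG29, a senescence-associated gene of the sugar transporter family, was among them, with 2628.4 in RNAi group 2, 98.8 in RNAi group 3 and 221.6 on the shared array. AT1G80130 had 10265.4 in RNAi group 2, 665.1 in RNAi group 3 and 1574.1 on the shared array. GILT had 1006.1 in RNAi group 2, 161.8 in RNAi group 3 and 5.3 on the shared array, the order opposite to the first 2.

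At the 4-fold threshold itself the values run on without a break. Just inside lay AT4G12890 at 4.01-fold, a lower bound set by the floor, AT3G22620 at 4.02-fold and an unnamed probe set at 4.03-fold. Just outside lay an unnamed probe set at 3.99-fold, the alpha-amylase gene AMY1 at 3.98-fold and AT3G18250 at 3.96-fold. AMY1, whose enzyme breaks down starch, had 779.1 in RNAi group 2, 181.2 in RNAi group 3 and 196.0 on the shared array.

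Some named members lay near each other in the genome, a feature the rule did not use. In the order of protein-coding genes of the reference table, 4 pairs of the 46 protein-coding members stood at most 3 places apart. They were AT1G54860 with AT1G54870, AT2G41250 with M10, AT3G22620 with PAP85, and AT4G12490 with AT4G12500. Only the last pair belongs to 1 family. Of 110 named probe sets within 3 places of a member, these 8, or 7.27%, were members themselves, against 0.355% of all probe sets with 1 named gene. Of the other 102, 2 (1.96%) were at least 2-fold over both arrays, against 2.73% of all probe sets with 1 named gene. Probe sets whose suffix marks probes shared between transcripts made up 4.50% of the members and 4.66% of all probe sets.

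The 23 lists of stress, hormone, metabolic and tissue genes chosen for this comparison hold 361 entries, for which 44 probe sets were named here. None of the 44 was a member, which says little where 0.355% of named probe sets are members. Symbols beginning EXP or WRKY were barred from membership, so EXPA7, EXPA18 and WRKY53 could not be members. None of these met the signal criteria. At least 2-fold over both arrays were 5 of the 44, beside 369 of 13513 probe sets with 1 named gene (2.73%). A further 1 of the 44 was at least 2-fold under both. The lists were chosen with earlier results of these data known, so these counts are a description. Of 20 probe sets named as transcription factors by the prefixes NAC, BHLH and BZIP, 0 were members, which says as little. The other prefixes searched, such as ERF, DREB and ZAT, had no named probe set. Among markers of other cell types, the 7 named for mature pollen summed to 1273.5 in RNAi group 2, 948.2 in RNAi group 3 and 859.3 on the shared array, and 0 were members. That sum rests mostly on TUA1, with 805.5 in RNAi group 2, 452.0 in RNAi group 3 and 454.2 on the shared array. ACT11 went the other way, with 252.5 in RNAi group 2, 370.4 in RNAi group 3 and 346.3 on the shared array. ACT12 was higher in RNAi group 2 but dim, and ANX1 and ANX2 lay under 32 on all arrays. XIE and XIC were dim too, and only 1.27-fold and 1.33-fold over RNAi group 3. XIE had 57.0 in RNAi group 2, 45.0 in RNAi group 3 and 4.5 on the shared array. XIC had 77.6 in RNAi group 2, 58.2 in RNAi group 3 and 18.6 on the shared array. The 3 named root markers, of a tissue the mix should not hold, summed to 51.4 in RNAi group 2, 75.9 in RNAi group 3 and 46.7 on the shared array. The 2 tapetum markers AMS and SPL summed to 221.3 in RNAi group 2, 274.0 in RNAi group 3 and 299.5 on the shared array. Their part in the members' signals was not tested.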

How the data were processed

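The authors deposited 1 intensity per probe set, on a linear scale, from 1-colour Affymetrix arrays; the submitters' processing notes name GCOS and MAS5, without versions. Per the labels' protocols, the target was biotinylated cRNA and the stain phycoerythrin. Detection calls were not used here, and the number of arrays limits the precision. Of 22810 rows, 64 control probe sets were left out. Probe sets were named through the platform annotation, with symbols updated from a TAIR10.1 gene table by gene identifier: 13513 had 1 gene, 13436 of them matched, 503 had several genes and 8730 are unnamed here.

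Signals were used as deposited, with a floor of 32. Counts, folds and log2 differences were computed in Python 3.11.15 with pandas 2.3.3. The code of the selection was checked on simulated signals with planted folds and less spread than between these arrays. That check covers the code, not the members. No test was run, because each plant group has 1 array and the members were chosen on this contrast. Single values that moved by less than a log2 SD of 0.49 count as unmoved. The members and lists were chosen with earlier results of these data known. By the rule for named genes, signals are given for the 30 named members with the greatest smaller fold. The rule also covers further members of families with several members, the brightest members and those nearest the threshold. Unnamed members are mostly counted only, so the signals of some of the brightest are not given. The named members that the rule does not require were added after their values were seen. From the lists, 4 symbols that match a different gene were left out. Promoter and protein sequences were not used here.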

Additional observations from a re-analysis of the deposited data

How the results depend on the processing

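The count of 111 members was 142 with a floor of 16 (105 shared), 78 with a floor of 64 (73 shared), 95 with median centring (95 shared), 97 with quantile normalisation (96 shared), 96 with the others under 1.5-fold apart and 125 with no limit between them. It was 413 with no floor (86 shared), 214 at 3-fold, 52 at 6-fold and 48 with only probe sets of 1 named gene. Leaving out plant groups in turn gave 111 to 278; the last, against RNAi group 3 alone, was added after the data were seen. Leaving out the GUS control or RNAi group 1 alone changes nothing, because their values are identical. Both floors and both scalings kept 62 of the members, 20 of them named by 1 gene, among them AT1G04560, AT3G15670, PAP85, HIS1-3 and FDH. The sign of the 48 named members' differences is fixed by the rule. Their sizes moved by less than the SD for 48 with either scaling, for 33 with a floor of 16 and for 18 with a floor of 64, since the floor sets the fold of dim genes. The median log2 difference of 3 lists moved: to 0.93 for reactive oxygen and detoxification and to -0.92 for guard cells with a floor of 16, and to 0.00 for mature pollen with a floor of 64. A search for promoter motifs in a shorter window was not run. No paired analysis was possible because the labels number the RNAi groups only. Signals under 32 limit the folds of 59 members.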

Other observations

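Among listed genes that are no members, 5 were at least 2-fold higher in RNAi group 2 than on both other arrays. APL3, a subunit of the starch-making enzyme ADP-glucose pyrophosphorylase, had 998.0 in RNAi group 2, 307.3 in RNAi group 3 and 413.2 on the shared array. WES1, which couples auxin to amino acids, had 1045.1 in RNAi group 2, 318.7 in RNAi group 3 and 484.5 on the shared array. WRKY53, a regulator of leaf senescence, had 360.5, 152.7 and 110.5 on the same arrays. SAG101, the only other named senescent leaf marker, is not among the 5. It had 93.0 in RNAi group 2, 60.8 in RNAi group 3 and 124.1 on the shared array. The anthocyanin genes UF3GT and DFR were dim, with 85.7 and 72.1 in RNAi group 2, 16.1 and 30.3 in RNAi group 3, and 11.9 and 34.8 on the shared array.

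The only listed gene at least 2-fold lower in RNAi group 2 than on both was AUR2, an Aurora kinase of dividing cells, with 35.5 in RNAi group 2, 294.2 in RNAi group 3 and 114.2 on the shared array. AUR1 had 141.3 in RNAi group 2, 303.0 in RNAi group 3 and 184.7 on the shared array. SPCH, which starts the stomatal lineage, had 34.9 in RNAi group 2, 137.9 in RNAi group 3 and 63.5 on the shared array. Of the other guard cell genes, FMA went the other way, with 217.5 in RNAi group 2, 144.0 in RNAi group 3 and 186.5 on the shared array. MUTE was dim, with 14.3 in RNAi group 2, 43.2 in RNAi group 3 and 21.2 on the shared array. The clock gene GI had 1387.2 in RNAi group 2, 824.5 in RNAi group 3 and 665.3 on the shared array. With 1 array per plant group these values have no replicate check.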
